A study of Mus musculus with 8 samples.

Results

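The genes described here encode 9 transcription factors that hold T cells at rest or in a naive or memory-like state: Foxo1, Foxo3, Foxp1, Bach2, Lef1, Tcf7, Satb1, Klf2 and Klf3. They were chosen by name. Each was read from the probe set that the platform annotation ties to that symbol alone, and where a gene had several such sets the one with the highest mean over all arrays would have been used. Of the 9 genes, 8 were measured in this way, each by 1 probe set, out of 19937 genes in all. Tcf7 was not analysed here.

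The cells were mouse FoxP3+ regulatory T cells (Tregs), CD4 lymphocytes that hold immune responses in check. They were sorted from Bcl6-/- mice (KO) and from wild-type mice (WT), and all were stimulated with antibodies to CD3 and CD28 for 16 h before RNA was extracted, so every level below is that of activated and not of resting cells. The Bcl6 protein is a zinc finger repressor of transcription. There were 8 Affymetrix arrays of 100 ng of total RNA each, 4 KO-labelled (KO 1A, KO 1B, KO 2A and KO 2B) and 4 WT (WT 1A, WT 1B, WT 2A and WT 2B), with 2 arrays (A and B) from each of 2 KO and 2 WT Treg preparations, as the study's design describes them. The labels give no strain, age or sex, do not describe the deleted part of Bcl6, and leave unsaid whether a number or a letter stands for a mouse, a culture or an extract of its own. The p-values thus take in no more than the spread among these samples, which may be technical, and precision is limited by how few arrays there are.

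Quiescence in T cells is an actively kept state. FOXO1 and FOXO3 are forkhead factors that work in the nucleus until AKT, a kinase downstream of the T cell receptor and CD28, phosphorylates them and sends them to the cytoplasm, so their transcript levels do not report their activity. FOXP1, another forkhead protein, keeps naive T cells from leaving rest. BACH2 represses effector genes and competes with AP-1 factors for their sites. LEF1 and TCF1 (encoded by Lef1 and Tcf7) are HMG box proteins of naive, memory and follicular T cells, SATB1 organises chromatin in developing T cells and Tregs, and KLF2 and KLF3 are zinc finger proteins, of which KLF2 induces the egress receptor gene S1pr1.

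Several facts of the whole series bear on these results. Values are log2 expression after RMA, a procedure of background correction, normalization between arrays and summary over a set's probes. Nonetheless the arrays differed in spread: the SD over all probe sets was 1.87 and 1.84 in KO 1A and KO 1B, against 1.65 and 1.61 in KO 2A and KO 2B, and it ran between 1.56 and 1.70 among the WT arrays. KO 1 stood apart from the rest: over all probe sets the KO 2 arrays correlated at 0.935 to 0.956 with the KO 1 arrays and at 0.979 to 0.989 with the WT arrays, and the difference of each factor is therefore also given for KO 1 and KO 2 apart. The Bcl6 probe set read 8.72 ± 0.24 log2 on KO-labelled arrays, against 8.13 ± 0.25 on WT arrays (SD, n = 4 each), and as neither the deleted part nor the probes' place was used here, it is no check of the labels. The mean log2 level of 3 Y-linked genes was 4.62 to 4.80 in the KO-labelled arrays, against 6.94 to 8.30 in the WT arrays, with no overlap between the groups. Among the 8 markers of Tregs, 0 were called and 4 were higher at an unadjusted p under 0.05 in limma, against 5.65% of all genes. Foxp3, the factor that defines Tregs, was at 10.75 ± 0.31 log2 on KO-labelled arrays, against 9.91 ± 0.28 on WT arrays (SD, n = 4 each). Of the measured markers of B cells (7), CD8 T cells (2), natural killer cells (4), myeloid cells (7), dendritic cells (5) and erythroid cells (2), 0 were called and 0 had an unadjusted p under 0.05 in limma. The summed linear level of the 7 measured B cell markers, cells in which Bach2, Foxp1 and Lef1 are also expressed during their development or maturity, ranged from 570 to 716 on KO-labelled arrays, against 546 to 681 on WT arrays. Because the groups differed fully in Y-linked level, whatever goes with it cannot be told apart here from the lack of Bcl6. Array spread was taken up only by a fit with array SDs as a covariate, given below among the alternatives. As its random block was estimated below 0 (-0.37), the part that array spread has in the results is not settled by it.

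Setting KO-labelled beside WT Tregs addresses which transcripts stand at another level between these groups, which differ in Y-linked level as well as in the Bcl6 label. Foxp1, Bach2, Lef1, Satb1 and Klf3 were lower in every KO-labelled array than in every WT array, whereas Foxo1, Foxo3 and Klf2 overlapped between the groups. The 5 that did not overlap had KO-labelled levels of 42.1% to 66.2% of WT on the linear scale. With limma and Benjamini-Hochberg adjustment over all 19937 genes, 0 of the 8 rose, 0 fell and 8 did not pass at an adjusted p under 0.05, a threshold that 0.12% of all genes passed as higher, 0.015% as lower and 0.135% in either direction. At an unadjusted p under 0.05, 3 of the 8 were lower and 0 higher, against 0.542% of all genes lower and 5.65% higher. Without overlap of arrays 5 of the 8 were lower and 0 higher, against 2.11% of all genes lower and 6.67% higher. A difference below 0 was found in 7 of the 8, against 56.8% of all genes. The median difference of the 8 was -0.66 log2, beside a median of -0.06 over all genes tested. These genes were chosen with earlier results on these arrays known, so their counts are a description and not independent evidence of a direction. In bulk RNA, fewer cells that express a gene and less RNA of it per cell cannot be told apart.

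**Figure D1:**
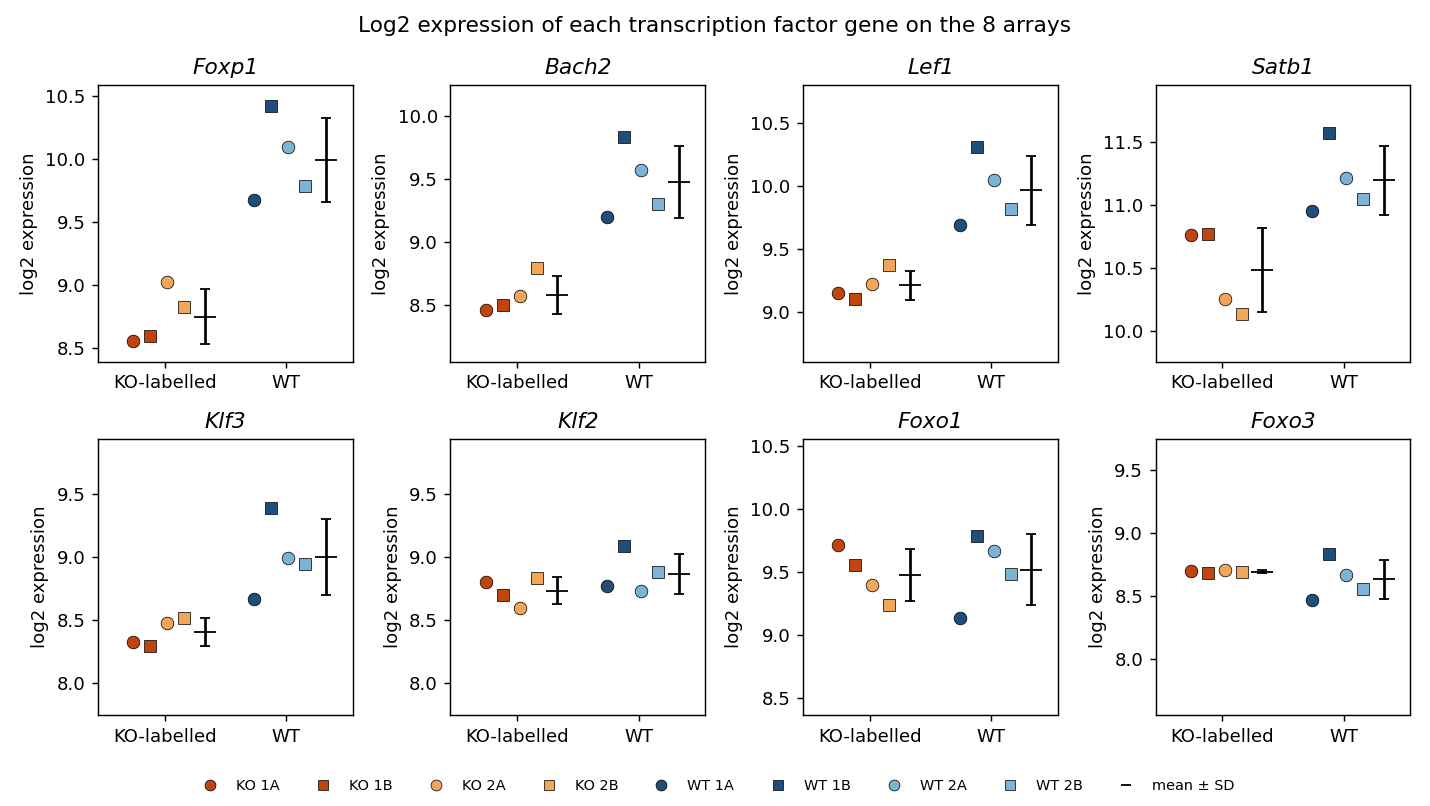
Log2 expression (vertical axes, each spanning the same number of log2 units) of the 8 measured genes on the KO-labelled arrays (left) and the WT arrays (right); circles are arrays A, squares arrays B, and the bars at the right of each group its mean and SD (n = 4). In Foxp1, Bach2, Lef1, Satb1 and Klf3 all KO-labelled points lie below all WT points, and in every panel WT 1B is the highest WT point.

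Foxp1 showed the largest difference of the 8. Its probe set (10546661) read 8.56 and 8.59 log2 in KO 1 and 9.02 and 8.82 in KO 2, against 9.68 and 10.42 in WT 1 and 10.09 and 9.79 in WT 2. The highest KO-labelled array was thus 0.66 log2 below the lowest WT array, the widest gap among the 8 genes. Mean levels were 8.75 ± 0.22 log2 for KO-labelled and 9.99 ± 0.33 log2 for WT arrays (SD, n = 4 each). The fitted log2 difference was -1.25 (SE 0.34, 95% interval -1.97 to -0.52), a level 42.1% of WT, with an unadjusted p of 0.00264 and an adjusted p of 0.376 in limma. By that unadjusted p Foxp1 stood at place 140 of all 19937 genes and at place 13 of the genes with a difference below 0. Both preparations were lower than the WT mean, KO 1 by a difference of -1.42 and KO 2 by a difference of -1.07.

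Bach2, the repressor of effector genes, was lower by a similar pattern. Its probe set (10503695) read 8.46 and 8.50 log2 in KO 1 and 8.57 and 8.80 in KO 2, against 9.20 and 9.84 in WT 1 and 9.57 and 9.30 in WT 2. The KO-labelled arrays spanned 0.33 log2 and the WT arrays 0.63, with 0.40 between the groups. The difference was -0.89 (SE 0.31, 95% interval -1.56 to -0.23), 53.8% of WT, with an unadjusted p of 0.0119 and an adjusted p of 0.581 in limma. It was -0.997 for KO 1 and -0.79 for KO 2 against the WT mean. Between preparation means, KO 1 minus KO 2 was -0.20 and WT 1 minus WT 2 was 0.08.

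Lef1, the partner of TCF1 in naive and memory T cells, followed. Its probe set (10496091) read 9.15 and 9.10 log2 in KO 1 and 9.22 and 9.37 in KO 2, against 9.69 and 10.31 in WT 1 and 10.05 and 9.81 in WT 2. All KO-labelled arrays lay within 0.27 log2 of each other and at least 0.32 below the WT arrays. The difference was -0.76 (SE 0.30, 95% interval -1.41 to -0.10), 59.2% of WT, with an unadjusted p of 0.0273 and an adjusted p of 0.701 in limma. The KO 1 and KO 2 means were at -0.84 and -0.67 from the WT mean.

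Since these 3 genes were lower together, the bases before 1 listed transcript start of each are shown, as a stretch in which shared motifs can be looked for. Each is the 250 bases before the most upstream of the starts given for the gene in the RefSeq promoter table of build GRCm38.p6, read 5′ to 3′ on the strand of the gene. The gene record of RefSeq in the same build begins at that start for Lef1, but 1.75 kb further upstream for Foxp1 and 179 kb further upstream for Bach2, so those windows lie within the gene record and other starts were not searched. Foxp1 is on the minus strand at chr6:99520994-99521243, Bach2 on the plus strand at chr4:32417185-32417434 and Lef1 on the plus strand at chr3:131110047-131110296. Capitals mark matches to the motifs named after the sequences.
Foxp1: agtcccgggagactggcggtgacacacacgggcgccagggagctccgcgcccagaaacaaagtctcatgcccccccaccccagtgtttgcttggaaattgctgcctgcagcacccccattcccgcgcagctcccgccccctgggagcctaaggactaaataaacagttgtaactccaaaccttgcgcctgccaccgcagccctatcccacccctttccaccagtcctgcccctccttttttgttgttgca
Bach2: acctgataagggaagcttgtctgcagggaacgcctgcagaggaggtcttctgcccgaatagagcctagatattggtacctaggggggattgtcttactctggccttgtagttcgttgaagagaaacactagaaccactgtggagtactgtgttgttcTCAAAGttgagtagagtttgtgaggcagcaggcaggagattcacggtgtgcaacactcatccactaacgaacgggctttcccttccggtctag
Lef1: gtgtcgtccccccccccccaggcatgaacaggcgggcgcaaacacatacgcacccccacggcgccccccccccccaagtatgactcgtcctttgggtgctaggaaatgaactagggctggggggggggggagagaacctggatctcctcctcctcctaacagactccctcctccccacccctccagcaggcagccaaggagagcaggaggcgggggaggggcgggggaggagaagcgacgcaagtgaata

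Both strands were searched for TTCCNNGAA as a BCL6 motif, which also fits the consensus of STAT proteins, for GTAAACA as a FOXO motif, for CTTTGA as a TCF and LEF motif and for TGANTCA as a motif of BACH2 and AP-1 factors. Over the 27025 genes of the table, the same 250-base window held these motifs in 4.15%, 3.06%, 14.1% and 6.85%, in that order. Among the windows of all 9 genes, 0 held TTCCNNGAA, 0 GTAAACA and 0 TGANTCA. In 1, that of Bach2, CTTTGA was found, read as TCAAAG, 93 bases before the start used here. Other spellings that these proteins bind were not searched, so the windows may hold further motifs of the same families. A match is a description of the letters and not a binding site, and the absence of a match concerns these windows and these spellings alone.

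Satb1 was the gene in which the KO preparations differed most. Its probe set (10451763) read 10.76 and 10.77 log2 in KO 1 but 10.25 and 10.13 in KO 2, against 10.95 and 11.57 in WT 1 and 11.21 and 11.04 in WT 2. KO 2 was therefore the lower preparation here, the opposite order to Foxp1, Bach2, Lef1 and Klf3, and KO 1 lay just below the lowest WT array, by 0.18 log2. Against the WT mean the difference was -0.43 in KO 1 and -1.001 in KO 2, and whether the preparations differ was not tested. The fitted difference was -0.72 (SE 0.34, 95% interval -1.44 to 0.01), 60.9% of WT, with an unadjusted p of 0.0540 and an adjusted p of 0.701 in limma.

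The Krüppel-like factors Klf3 and Klf2 had differences below 0, without overlap of the groups in Klf3 alone. Klf3 (probe set 10522051) read 8.32 and 8.29 log2 in KO 1 and 8.48 and 8.52 in KO 2, against 8.66 and 9.39 in WT 1 and 8.99 and 8.95 in WT 2. No arrays overlapped, although WT 1A came within 0.15 log2 of the highest KO-labelled array, KO 2B. The Klf3 difference was -0.60 (SE 0.30, 95% interval -1.25 to 0.06), 66.2% of WT, with an unadjusted p of 0.0704 and an adjusted p of 0.701 in limma. Klf2 (probe set 10572800) read 8.80 and 8.70 log2 in KO 1 and 8.60 and 8.83 in KO 2, against 8.77 and 9.09 in WT 1 and 8.73 and 8.88 in WT 2. In Klf2 the groups overlapped, with 2 of the 4 WT arrays above all KO-labelled arrays. Its difference of -0.14 (SE 0.25, 95% interval -0.68 to 0.41) did not pass (adjusted p = 0.773 in limma), and the interval leaves room for a fall as deep as the point estimate of Klf3. That the difference of Klf3 is unlike that of Klf2 was not tested.

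The FOXO genes showed no separation of the groups in either member. Foxo1 (probe set 10491962) read 9.71 and 9.56 log2 in KO 1 and 9.40 and 9.24 in KO 2, against 9.14 and 9.78 in WT 1 and 9.67 and 9.48 in WT 2. KO 1 lay 0.12 above the WT mean and KO 2 0.20 below it (a difference of -0.20), with all 8 arrays mixed in order. The fitted difference was -0.04 (SE 0.31, 95% interval -0.72 to 0.64, adjusted p = 0.945 in limma), and its sign turned to 0.06 when each array was centred on its median. Foxo3 (probe set 10368888) read 8.70 and 8.68 log2 in KO 1 and 8.70 and 8.69 in KO 2, against 8.47 and 8.83 in WT 1 and 8.67 and 8.56 in WT 2. Its KO-labelled arrays agreed within 0.02 log2, the narrowest range of any of the 8 genes, inside a WT range of 0.36. The fitted difference was 0.06 (SE 0.24, 95% interval -0.46 to 0.58, adjusted p = 0.888 in limma) and turned to -0.20 after quantile normalization.

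**Figure D2:**
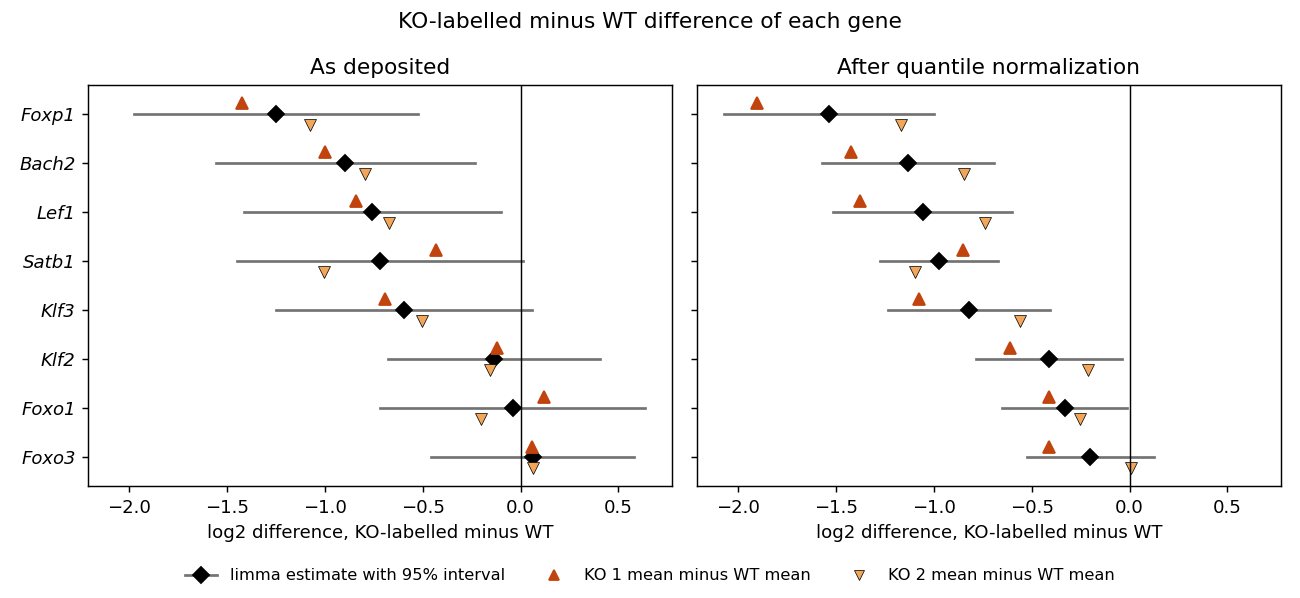
Log2 difference, KO-labelled minus WT, of each gene as deposited (left) and after quantile normalization of the deposited values (right); diamonds are the limma estimates with 95% intervals, upward triangles the KO 1 mean and downward triangles the KO 2 mean minus the WT mean (n = 2 arrays each). The 5 upper genes lie below 0 in both panels and in both preparations, and the estimates move further down after quantile normalization.

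Quantile normalization, which gives all arrays the same distribution, changed how many of these genes passed. After it, Foxp1 fell by 1.53 log2 (adjusted p = 0.0196), Bach2 fell by 1.13 (adjusted p = 0.0310) and Satb1 fell by 0.97 (adjusted p = 0.0105), all in limma over 19937 genes. Lef1 was at -1.06 (adjusted p = 0.0523) and Klf3 at -0.82 (adjusted p = 0.0921), and neither passed. Thus 3 of the 8 genes were called lower, 0 higher and 5 were not called, in a setting in which 0.181% of all genes were called lower, 0.607% higher and 0.787% in either direction. At an unadjusted p under 0.05, 7 of the 8 were lower, against 3.28% of all genes lower and 8.98% higher, with Foxo3 as the exception. All 8 differences were below 0, against 52.3% of all genes. These shares cover genes of every level, and genes as bright as the 8 were not compared apart. The scaling also moved genes outside the list. Foxp3 went from 0.84 to 0.57 and S1pr1 from -0.42 to -0.72, whereas Klf8 and Klf10, at lower levels, went from 0.57 to 0.70 and from 0.56 to 0.65. How much of the 8 genes' shift goes with their level was not tested. The same 5 genes had no overlap between the groups as on the deposited scale, against 4.73% of all genes lower and 7.36% higher without overlap. Over all genes the calls were 121 higher and 36 lower after quantile normalization, against 24 higher and 3 lower as deposited. The adjusted p of Foxp1 ranged from 2.5e-07 to 0.999 over its 30 alternatives, that of Bach2 from 2.0e-06 to 0.999 and that of Satb1 from 6.1e-07 to 0.999. The lowest values rest on random blocks estimated below 0: those of Foxp1 and Bach2 were had without KO 2 (block correlation -0.64) and that of Satb1 with array SDs as a covariate (-0.37). Without KO 2 and with no block, the adjusted p was 0.000357 for Foxp1 and 0.00147 for Bach2 in limma. Most genes passed in that setting, with 5997 of all 19937 called higher and 7381 lower.

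The preparations moved these genes to different degrees under that scaling. After quantile normalization Foxp1 was at -1.90 from the WT mean in KO 1 and at -1.16 in KO 2. Bach2 was at -1.42 and -0.84, and Lef1 at -1.38 and -0.74. Satb1 kept the other order, at -0.85 in KO 1 and -1.10 in KO 2. Leaving out KO 1 or KO 2 on the deposited scale left Foxp1 at -1.07 or -1.42, Bach2 at -0.79 or -0.997, Lef1 at -0.67 or -0.84, Satb1 at -1.001 or -0.43 and Klf3 at -0.50 or -0.69. Each is by arithmetic the remaining KO preparation's mean minus the WT mean, and so no separate check. In 150 of the 150 estimates of these 5 genes under the 30 alternatives the difference was below 0. As their arrays did not overlap between the groups, leaving out arrays on the deposited scale could not turn the sign. Several alternatives also repeat the same estimate, so this count is no test of direction.

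The WT arrays themselves differed in these genes in a common order. WT 1B was the highest WT array in 8 of the 8 genes and WT 1A the lowest in 7, Klf2 being the exception, where WT 2A was lowest. Over all genes WT 1B was the highest WT array in 33.3% and WT 1A the lowest in 25.9%. Foxp1 differed by 0.74 log2 between WT 1B and WT 1A, Klf3 by 0.73, Foxo1 by 0.65, Bach2, Satb1 and Lef1 by 0.63, 0.63 and 0.62, Foxo3 by 0.36 and Klf2 by 0.32, while the median of all genes was -0.09. In 7 of the 8 genes the WT order from low to high was 1A, 2B, 2A, 1B, an order found in 17.6% of all genes and the same as the order of the arrays' SDs (1.56, 1.58, 1.62 and 1.70). After quantile normalization 3 of the 8 genes kept that order, against 15.5% of all genes. WT 1B was then highest and WT 1A lowest in 6 of the 8, against 19.8% of all genes, which include genes of every level. What sets the order of the WT arrays was not tested.

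**Figure D3:**
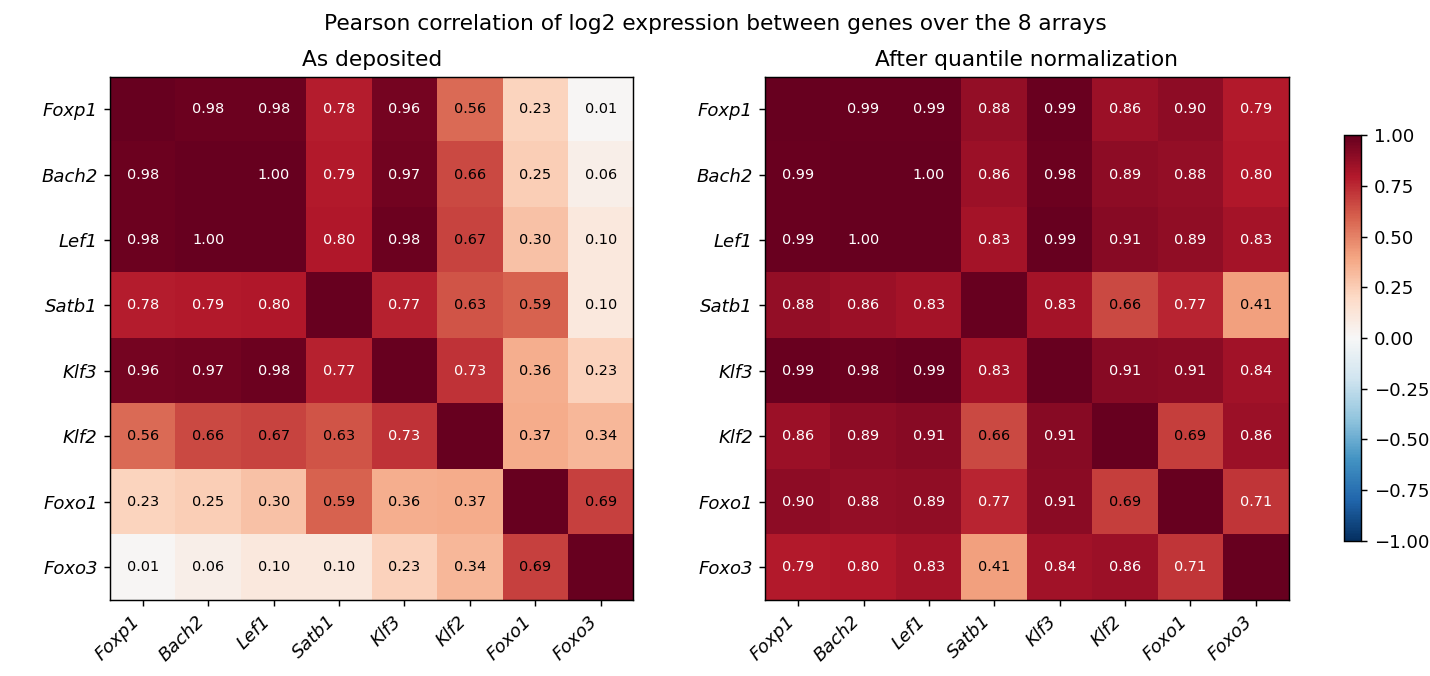
Pearson correlation (colour and printed value) of log2 expression between each pair of the 8 genes over the 8 arrays, as deposited (left) and after quantile normalization (right). Foxp1, Bach2, Lef1 and Klf3 form a block of 0.96 and above in both panels, while Foxo1 and Foxo3 stand at 0.01 to 0.36 with these 4 genes as deposited and at 0.79 to 0.91 after quantile normalization.

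Across the 8 arrays, which share their preparations and the group difference, Foxp1, Bach2, Lef1 and Klf3 varied closely together. Bach2 and Lef1 had a Pearson correlation of 0.997 over the 8 arrays, and only 1 other gene of 19936 correlated more closely with Bach2. Foxp1 correlated with Lef1 at 0.980 and with Bach2 at 0.980, which placed them at 9 and 10 among all genes by likeness to Foxp1, and with Klf3 at 0.959, at place 28. Satb1 correlated with these 4 at 0.77 to 0.80, and Klf2 at 0.56 to 0.73. Foxo1 and Foxo3 correlated with each other at 0.69, and with Foxp1 at 0.23 and 0.01. These correlations depended on the scaling, as those of Foxo1 and Foxo3 with Foxp1 were 0.90 and 0.79 after quantile normalization, and they are descriptions of 8 arrays with no test.

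Among genes with a mean of at least 7 log2, those most like Foxp1 were Matn2, a matrix protein gene, and St8sia1, which encodes a ganglioside sialyltransferase, at correlations of 0.992 and 0.992. Most like Bach2 were Evl, a gene of actin assembly, at 0.998, and Lef1. Most like Lef1 were Bach2 and again Evl, at 0.994. Satb1 was most like Ndrg3 (0.995) and Patj (0.985), and Klf3 most like Tecpr1 (0.985) and Lef1 (0.979). Klf2 had less close counterparts, Rab11fip2 at 0.932 and Phf1 at 0.905. Foxo1 was most like Prkacb, a catalytic subunit of protein kinase A (0.982), and Sp4 (0.973), and Foxo3 most like Ifi209 (0.973) and Mbnl1 (0.953). The ranking covered 9456 genes and 8 arrays.

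Related genes of the same families were examined next. Of 20 measured FOXO, FOXP, BACH, TCF, SATB and KLF paralogs, 0 rose, 0 fell and 20 did not pass, with a median of -0.06, equal to that of all genes to 2 decimals. At an unadjusted p under 0.05, 1 of the 20 was higher and 0 lower, a share near the 5.65% of all genes that were higher. It was Klf8, a member of the same CtBP-binding branch as Klf3, at 0.57 (SE 0.15, adjusted p = 0.383 in limma). Klf8 read 5.67 to 5.93 log2 on KO-labelled arrays, against 5.23 to 5.33 on WT arrays, all below the 6 log2 used as a filter for dim genes. It rose after quantile normalization (0.70, adjusted p = 0.0343 in limma), where 0.607% of all genes were called higher. Klf10, which is induced by TGF-beta, was at 0.56 (SE 0.28) and Klf1, the erythroid factor, at -0.29 (SE 0.20), and their groups overlapped. Of 18 other genes ascribed to T cell quiescence or stemness, 0 rose, 0 fell and 18 did not pass. Their median was 0.03 (0.21 for KO 1 and -0.17 for KO 2), and -0.25 after quantile normalization. Without overlap of arrays 3 of the 18 were lower and 1 higher, against 2.11% of all genes lower and 6.67% higher. Pik3ip1, an inhibitor of PI3K that is high in resting T cells, was at -0.64 (SE 0.31, adjusted p = 0.701 in limma) with KO 2B and WT 1A, the nearest arrays, both reading 7.82. Runx1 was at 0.84 (SE 0.41) and Elf4, a factor that restrains proliferation of CD8 T cells, at 0.81 (SE 0.41), each with an adjusted p of 0.701 in limma.

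Upstream of the FOXO proteins, 14 regulator genes were measured, many of them of PI3K, AKT and mTORC2 signalling, of which 0 rose, 0 fell and 14 did not pass. Their median difference of 0.23 was made up of 0.48 for KO 1 and -0.01 for KO 2. Akt1, a kinase that phosphorylates FOXO proteins, was at 0.58 (SE 0.28) and Inpp5d, which encodes the lipid phosphatase SHIP1, at 0.68 (SE 0.32), while Skp2, part of a ubiquitin ligase for FOXO1, was at 0.39 (SE 0.28). In all 3 the groups overlapped and the difference was larger in KO 1 (0.95, 1.05 and 0.73) than in KO 2 (0.22, 0.30 and 0.05).

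Genes described as induced by FOXO1 or FOXO3 differed in sign. Of 16 measured, 0 rose, 0 fell and 16 did not pass. At an unadjusted p under 0.05 in limma, 2 were higher and 1 lower, against 5.65% of all genes higher and 0.542% lower. The median was 0.03 (0.12 for KO 1 and -0.06 for KO 2), and -0.20 after quantile normalization. Il7r, the interleukin 7 receptor chain that FOXO1 induces and FOXP1 represses in naive T cells, read 10.73 and 10.67 log2 in KO 1 and 10.26 and 10.17 in KO 2, against 8.27 and 9.32 in WT 1 and 8.41 and 8.86 in WT 2. Every KO-labelled array was above every WT array, with a difference of 1.75 (SE 0.41, adjusted p = 0.246 in limma), and Il7r rose after quantile normalization (1.48, adjusted p = 0.0263). Ccr7, the lymph node homing receptor, read 9.26 and 9.07 in KO 1 and 9.34 and 9.40 in KO 2, against 9.87 and 10.42 in WT 1 and 10.31 and 10.04 in WT 2. It was lower without overlap, at -0.89 (SE 0.30, adjusted p = 0.568 in limma), and fell after quantile normalization (-1.19, adjusted p = 0.0316). Ctla4, an inhibitory receptor of Tregs, was at 0.93 (SE 0.40, adjusted p = 0.701 in limma).

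The 3 measured genes described as induced by KLF2 held 0 calls and did not share a sign. S1pr1, the receptor for egress from lymph nodes, was at -0.42 (SE 0.37) with overlapping groups, from 9.73 to 10.15 log2 on KO-labelled arrays, against 9.93 to 10.87 on WT arrays. Itgb7, an integrin chain of gut homing, was at 1.06 (SE 0.36, adjusted p = 0.581 in limma), with every KO-labelled array above every WT array. Ccr7, given above, belonged to this list as well.

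Among genes described to rise in T cells without BACH2, some passed the test and others did not. Klrg1, Id2, Gzmb, Gata3 and Cd44 rose, making 5 of the 12 measured, with 0 that fell and 7 that did not pass, beside 0.12% of all genes higher. These rises were known from earlier results of these data when the list was written, so the count is no independent evidence of its direction. Over the list the median difference reached 1.71 (2.34 for KO 1, whose arrays had the wider spread, but 0.96 for KO 2). Klrg1, a receptor of differentiated effector cells, Id2, an inhibitor of E proteins, and Gzmb, which encodes granzyme B, had log2 differences of 4.09, 2.82 and 3.53. Prdm1, which encodes Blimp-1 and is a gene that BACH2 represses, read 9.14 and 9.03 in KO 1 and 7.66 and 7.56 in KO 2, against 6.41 and 6.40 in WT 1 and 6.28 and 6.38 in WT 2. Its difference of 1.98 (SE 0.35) did not pass (adjusted p = 0.0564 in limma), and it rose after quantile normalization (1.86, adjusted p = 0.0137).

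**Figure D4:**
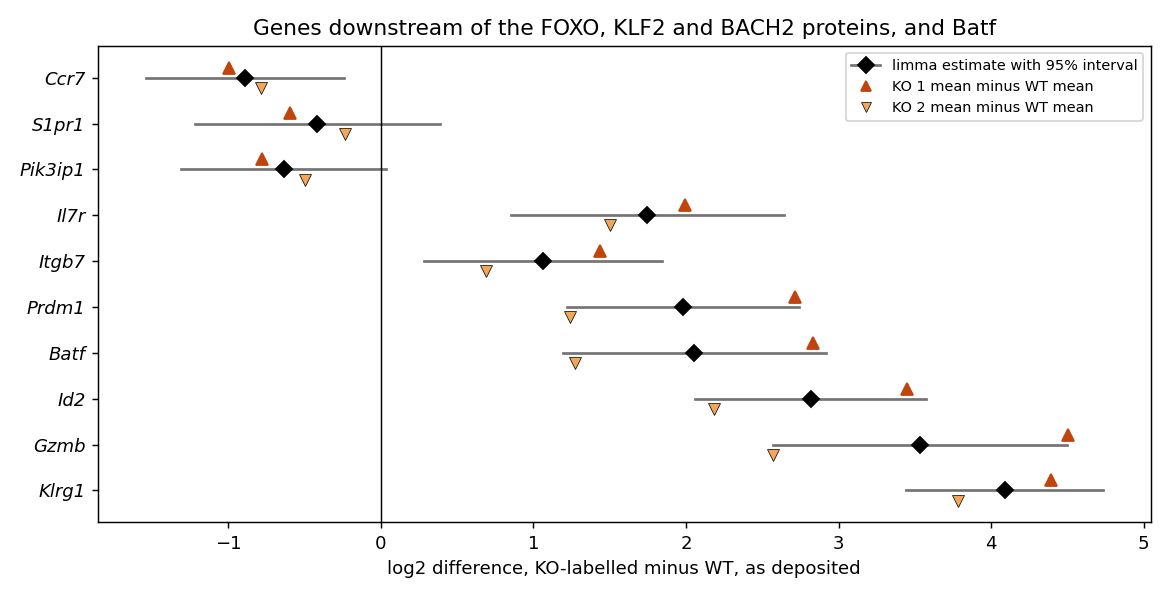
Log2 difference, KO-labelled minus WT, as deposited, of genes described downstream of FOXO, KLF2 or BACH2 proteins and of Batf; diamonds are limma estimates with 95% intervals and triangles the KO 1 and KO 2 means minus the WT mean (n = 2 arrays each). Ccr7, S1pr1 and Pik3ip1 lie below 0, and Il7r, Itgb7, Prdm1, Batf, Id2, Gzmb and Klrg1 above it, with KO 1 further from 0 than KO 2 in each.

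Partners and competitors of these factors were examined last. Of 10 measured small MAF and AP-1 genes, 0 rose, 0 fell and 10 did not pass, with a median of 0.21 and 4 higher at an unadjusted p under 0.05, against 5.65% of all genes. Batf, an AP-1 factor of effector T cells that shares sites with BACH2, read 10.66 and 10.73 in KO 1 and 9.12 and 9.16 in KO 2, against 7.66 and 8.07 in WT 1 and 7.95 and 7.77 in WT 2. Its difference was 2.05 (SE 0.40, adjusted p = 0.0825 in limma), with 2.83 in KO 1 and 1.27 in KO 2, and it rose after quantile normalization (1.90, adjusted p = 0.0198). Jund and Junb, further AP-1 subunits, were at 0.85 (SE 0.29) and 0.77 (SE 0.30), each without overlap between the groups. Of 15 measured beta-catenin, TLE and CTBP genes that work with TCF1 and LEF1, 0 rose, 0 fell and 15 did not pass, and 0 had an unadjusted p under 0.05. Their median was -0.01, with Bcl9, an adaptor of beta-catenin, at -0.36 (SE 0.22) and lower without overlap. Tle5, a short TLE family protein, was at 0.52 (SE 0.40) and Ctbp1, a corepressor that KLF3 also binds, at 0.40 (SE 0.33).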

How the data were processed

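Total RNA of stimulated Tregs was hybridised to 8 Affymetrix arrays, 4 KO-labelled and 4 WT. The authors deposited log2 expression for each probe set; the submitters' processing notes name Partek and RMA. Their versions and any filters: not given in the sources used here. The table held 28768 probe sets with 0 values missing and 0 unused columns of samples. No 2 arrays were identical. Scanner files were not used here. Symbols were taken from GEO's annotation of the platform, possibly outdated: 21771 probe sets had 1 symbol, 1557 several and 5440 none, and 0 symbols were changed through a RefSeq gene table. Where several sets named a gene (999 genes), the highest mean decided, which left 19937 genes.

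The fit used limma 3.58.1 under R 4.3.3 (eBayes after lmFit, with a variance trend, two-sided, Benjamini-Hochberg over all genes, threshold 0.05). Preparations entered as a random block, whose correlation duplicateCorrelation put at 0.617. The fit was also run on data simulated under its own model, without the arrays' differing spreads. That run checks the code and not whether the model suits these arrays. SE and 95% intervals are those of the fitted difference.

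The genes, lists, test and alternatives were chosen with earlier results of these data known. Named were the 9 factors, Bcl6, Ccr7, S1pr1, Il7r, Prdm1 and Foxp3, the genes of smallest p in each list (3 at most), and the 2 genes most correlated with each factor, leaving out predicted genes, antigen receptor segments, olfactory receptors and genes of chromosome 18. Of the list of genes held down by BACH2, Gata3 and Cd44 were named to complete a count. Genes of the lists without a matching symbol were not analysed here, and 1 further named gene is left out.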

Additional observations from a re-analysis of the deposited data

Results flagged for a closer look

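Foxo1 was singled out because the KO preparations lay on opposite sides of the WT mean: both KO 1 arrays were above it, at a mean log2 difference of 0.119, and both KO 2 arrays below it, at -0.2. Whether the preparations differ was not tested. After quantile normalization both were below the WT mean, at -0.41 in KO 1 and -0.25 in KO 2. In the other 7 genes both preparations lay on the same side of the WT mean on the deposited scale. No array of either group stood apart from the rest of its group by Dixon's criterion in any of the 8 genes.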

How the results depend on the processing

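The differences of Foxp1, Bach2, Lef1, Satb1 and Klf3 stayed below 0 under all 30 alternatives, an outcome largely fixed by their lack of overlap between the groups. Whether they passed the threshold depended on the treatment of preparations and on scaling. Foxp1 passed in 11 of the 30, Bach2 in 10, Lef1 in 9, Satb1 in 8, Klf3 in 7, and Foxo1, Klf2 and Foxo3 in 1 each, the last with its sign turned. These tallies are no measure of support, as the alternatives share the same arrays and in some most genes passed. Without KO 2, 7234 of all 19937 genes were called higher and 9666 lower, and with no block 5997 and 7381. In the fit with the labelled number as a replicate block and no random block, Foxp1 (adjusted p = 0.00936), Bach2 (0.0256) and Lef1 (0.0454) passed. The numbers are not known to pair the samples: the deviations of same-numbered preparations correlated at 0.416, a single value with 2 preparations a group. Counts of genes higher and lower were 24 and 3 as reported. They were 620 and 57 with the replicate block, 92 and 21 with no block, 45 and 7 on preparation means, 61 and 5 with array weights, 121 and 36 after quantile normalization, and 1599 and 884 with array SDs as a covariate. Of the 8 genes, the fit with array SDs called Foxp1 (-1.14), Bach2 (-0.85), Lef1 (-0.72), Satb1 (-1.07) and Klf3 (-0.56) lower. It did not call Klf2 (-0.18), Foxo1 (-0.25) or Foxo3 (0.03). With the letter as a factor 14 genes were higher, with median centring 12, and with every probe set tested 11 were lower. Leaving out KO 1 gave 1124 and 341, KO 2 7234 and 9666, and WT 2 0 and 0, while 8 were higher without WT 1. The random block estimated -0.63 and -0.64 without KO 1 and KO 2, and with no block the counts were 128 and 16 without KO 1 and 5997 and 7381 without KO 2. After quantile normalization, in settings chosen after seeing the data, they were 744 and 197 with the replicate block, 313 and 113 with no block, 184 and 51 without KO 1 and 4433 and 2610 without KO 2. Leaving out 1 array gave 13 to 51 higher (13 when WT 2A or WT 2B was dropped, 14 for KO 1B, 49 for KO 2B and 51 for WT 1B) and 2 to 6 lower (6 when KO 2B, WT 1A or else WT 1B was dropped). The Foxo1 difference turned positive with median centring (0.061), without KO 2 (0.119 with the random block and 0.119 with none) and without WT 2 (0.016); leaving out 1 array gave -0.198 to 0.110, positive for KO 2B, WT 1B and WT 2A. That of Foxo3 turned negative after quantile normalization (-0.20, also with the replicate block and with no block, and -0.41 without KO 2), and leaving out 1 array gave -0.025 (WT 1A) to 0.149 (WT 1B). The causes were not tested. The values carry no background measure, so dimness of probe sets was not assessed beyond a filter at a mean of 6 log2.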
